A study of Drosophila melanogaster with 9 samples.

Results

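The nuclear genes for subunits of the mitochondrial respiratory chain and the ATP synthase were followed in wing discs of Drosophila melanogaster larvae that carried a hairpin RNA against the noncoding RNA CR32027, or no hairpin. Genes were taken by FlyBase symbol: those starting with ND-, UQCR-, ATPsyn, or COX and a digit, together with SdhA, SdhB, SdhC, SdhD, RFeSP, Cyt-c1 and Cyt-c-p. This gave 84 of the 15682 genes in the deposited table, 39 in complex I, 4 in complex II, 11 in complex III, 15 in complex IV and 15 in complex V, the ATP synthase. No row was matched to the symbols ND-30, COX7CL and Cyt-c-p, which were not analysed here, and the genes of the mitochondrial genome were left out by the rule.

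Larvae of all groups had mothers carrying w1118, the wing driver Bx-GAL4 (also named MS1096; Bloomington 25706) and UAS-dicer2, so the driver and the extra Dicer-2 were present in the controls too. Fathers were of the lines CR32027-IR1 (VDRC 26860) or CR32027-IR2 (VDRC 103512), or of OreR, a wild-type strain. Male larvae at the wandering stage, grown at 25 °C, gave 30 wing discs per genotype, whose nota were cut off to keep the region where the driver acts, and 3 poly(A) libraries were sequenced for each of the 3 genotypes. RNA was extracted in triplicate, and separate crosses are not stated. The p-values therefore reflect variation from library to library, possibly technical. Each hairpin comes from 1 line, and the lines differ from OreR in more than the hairpin, so the hairpin and the line cannot be told apart.

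The respiratory chain passes electrons from NADH and succinate to oxygen through complexes I to IV in the inner mitochondrial membrane, and complexes I, III and IV pump protons as they do so. The ATP synthase lets the protons flow back and makes ATP from the energy. Most subunits are encoded in the nucleus, a small set is encoded in the mitochondrial genome, and Drosophila has additional copies of several nuclear subunit genes, many of them known for expression in the testis. Wing discs are growing epithelia that use both glycolysis and respiration.

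Library depth, recovered from the values themselves, was 25070343 to 36512316 reads, of which the 64 subunit genes tested took 0.781% to 0.916%. CR32027 itself was at 2.74 ± 0.495 RPKM (mean ± SD, n = 3) in OreR and 0.905 ± 0.432 in CR32027-IR2 (limma, adjusted p = 0.0171). The 3 libraries labelled CR32027-IR1 had 3.57 ± 0.793 RPKM (limma, adjusted p = 0.348 against OreR), so what is said of them refers to their label. All 4 wing pouch markers matched (of nub, vg, rn, Dll and pdm2) were present, with summed levels of 40.8 to 42.6 RPKM in OreR, 35.1 to 37.5 in CR32027-IR1 by label and 39.3 to 40.9 in CR32027-IR2. Summed hemocyte markers, 5 of 5 above 0, were 12.8 to 14.2, 7.99 to 11.4 and 11.0 to 12.9 RPKM in the same order. Most of this sum was crq, at means of 10.465, 7.683 and 9.912 RPKM, while NimC1 was at 1.348, 1.369 and 0.788. Hml, srp and Pxn were below 1 RPKM in every group, with lower means in CR32027-IR1 than in OreR. Summed neuron and glia markers, 4 of 4 above 0, were 4.50 to 5.18, 4.77 to 5.35 and 9.28 to 10.3 RPKM in the same order. The higher sum in CR32027-IR2 came from moody, at a mean of 6.147 RPKM against 1.266 in OreR, while elav was at 3.398 against 3.543 and nSyb and repo were below 0.1 RPKM in every group. The part of these markers in the differences given below was not tested. In whole tissue, fewer cells of a type and less RNA per cell cannot be told apart.

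Of the 84 subunit genes, 64 averaged at least 1 RPKM across all 9 libraries and were tested (32 in complex I, 4 in complex II, 8 in complex III, 8 in complex IV and 12 in complex V). RPKM scales reads by gene length and library size. The other 20 had means of at most 0.188 RPKM, and 9 of them were at 0 in every library. They were ND-B8 and 19 of the 20 genes whose symbols mark them as copies of another subunit gene, such as ND-49L, UQCR-14L, COX6AL and ATPsynbetaL. The highest value of any of them in any library was 0.623 RPKM, for COX7AL, while the lowest mean among the tested genes was 2.52 RPKM, for ND-15. Testis germline markers were near 0 in the same libraries: of 6 matched, 4 (of vas, bam, can, sa, aly, dj and Mst98Ca) were at 0 throughout, and the summed level of the list was at most 0.401 RPKM. The copy that did pass was ATPsynepsilonL, a second gene for the epsilon subunit of the ATP synthase, at 6.33 RPKM.

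Per exonic length, genes of complexes IV and V had higher levels than most genes of complexes I to III. The deposited RPKM divides reads by a length that includes introns, so genes with long introns appear low. For the 46 subunit genes whose recovered length was within 2% of the BDGP6 gene span, not counting ATPsynepsilonL, reads were therefore also divided by exonic length. On that scale the median level over the 9 libraries was 69.5 RPKM for 23 genes of complex I, 65.7 for 3 of complex II, 67.6 for 5 of complex III, 176 for 7 of complex IV and 196 for 8 of complex V. The lowest was ND-ASHI, an accessory subunit of complex I, at 25.0 exonic RPKM. The highest was ATPsynC, which encodes the membrane ring subunit of the ATP synthase, at 665, so the genes spanned 26.6-fold, against 142-fold in deposited RPKM. ND-15 had the lowest deposited level (2.52 RPKM), with a gene length of 41305 bases, and 91.5 RPKM by exonic length, above the median of its complex. ND-MLRQ moved from 21.0 to 259 RPKM in the same way, which made it the highest of the complex I genes on this scale, and COX6B from 52.4 to 252. Whether reads in introns or from genes inside the span were counted is not stated. The exonic levels of genes with long introns may therefore be too high. The ND-15 span, for example, is overlapped on the same strand by CG11454 (28.4 RPKM) and CG3436 (44.7 RPKM). Members of the complexes are not independent draws, and the order of the complexes is given as a description only.

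**Figure D1:**
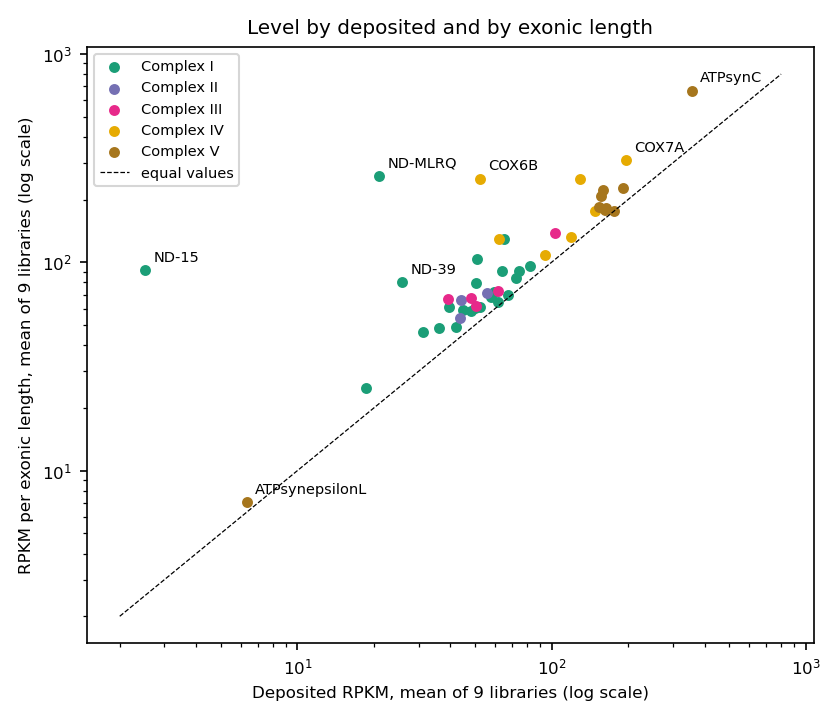
Mean level over the 9 libraries as deposited (x axis, RPKM, log scale) against the level per exonic length (y axis, RPKM, log scale) for the subunit genes whose gene model matched BDGP6, coloured by complex, with the dashed line marking equal values. ND-15, ND-MLRQ and COX6B lie far above the line, complex IV and V genes lie mostly above 100 exonic RPKM, and the copy ATPsynepsilonL is lowest at 7.08.

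The deposited values of the tested subunit genes varied little over the 9 libraries. Their median level was 60.5 RPKM, against 15.5 for all genes tested, and the part of level in the following comparison was not tested. The ratio of the highest to the lowest library had a median of 1.27 for the 64 genes and 1.31 for all genes without a 0. It was under 1.5 for 61 of the 64 (95.3%) and for 74.4% of all genes, with genes holding a 0 counted as not under 1.5. The 3 others were ATPsynepsilonL at 2.18, and ND-B14.5B and ND-B14.5A, accessory subunits of complex I, at 1.53 each. The steadiest was SdhA, the flavoprotein subunit of succinate dehydrogenase, with 43.3, 44.0 and 44.9 RPKM in OreR, 44.5, 43.8 and 46.0 in CR32027-IR1 and 42.7, 43.4 and 43.2 in CR32027-IR2. Its groups overlapped between each hairpin line and OreR, and its highest and lowest libraries differed 1.08-fold. Cyt-c1, the cytochrome c1 subunit of complex III, had 40.1, 38.7 and 38.2 RPKM in OreR, 37.2, 38.2 and 40.8 in CR32027-IR1 and 39.7, 40.3 and 38.0 in CR32027-IR2. The catalytic beta subunit of the ATP synthase, ATPsynbeta, had 357, 368 and 377 RPKM in OreR, 351, 366 and 383 in CR32027-IR1 and 369, 361 and 345 in CR32027-IR2. For both of these genes the 3 groups lay over each other, with ratios of 1.10 and 1.11.

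**Figure D2:**
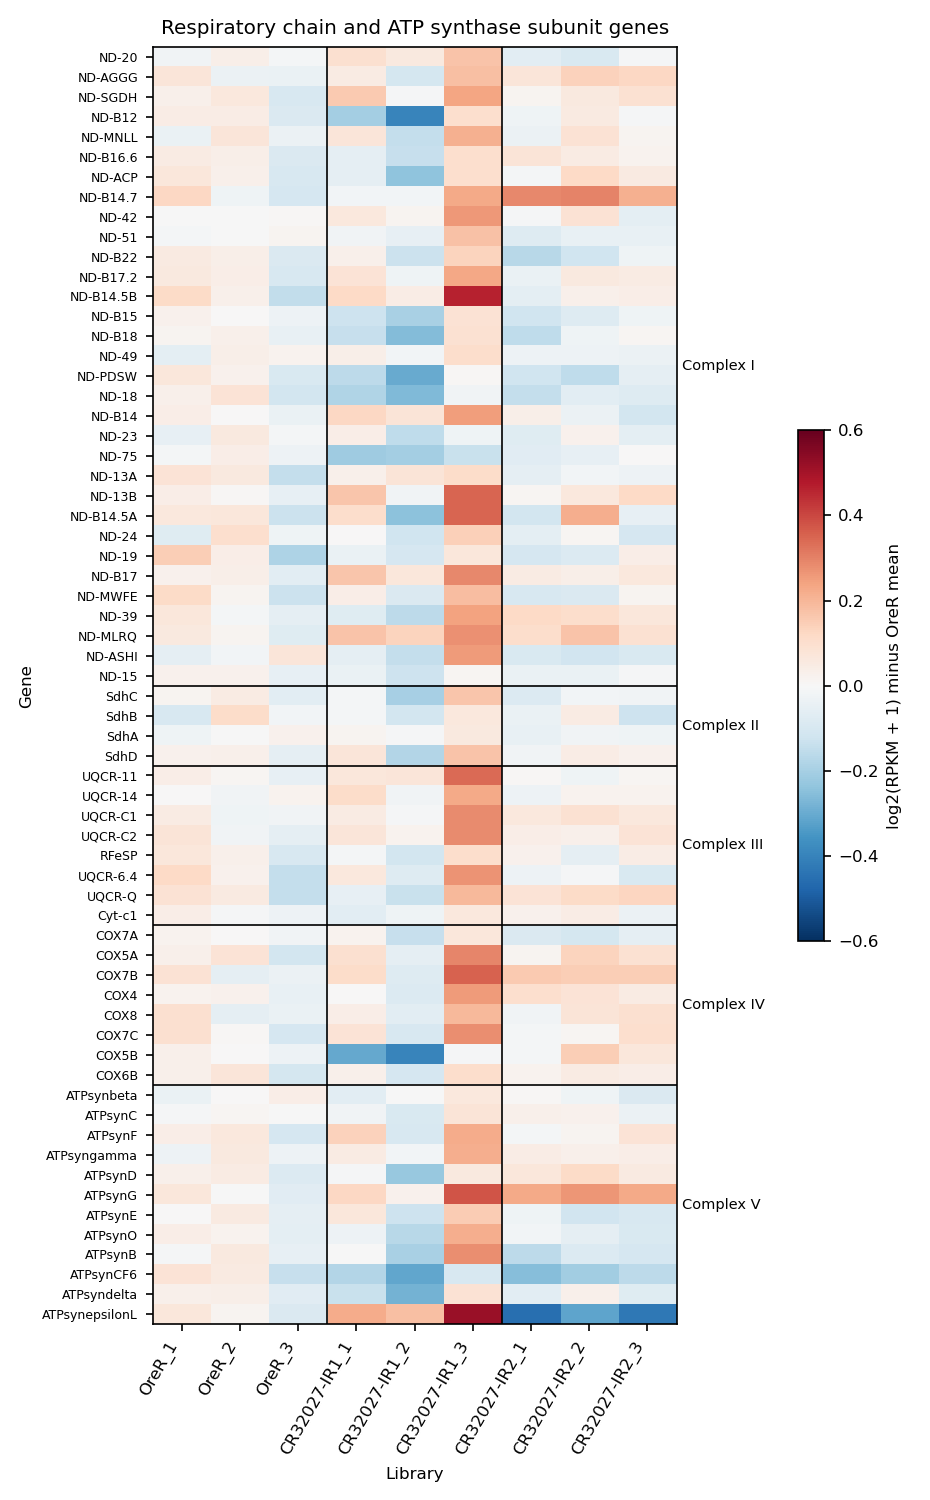
Each row is 1 of the 64 tested subunit genes, ordered by complex and by mean level, and each column 1 library; colour is log2(RPKM + 1) minus the mean of the 3 OreR libraries. The column of CR32027-IR1 replicate 3 is red and that of replicate 2 blue for most genes, and ATPsynepsilonL, in the bottom row, is red in all CR32027-IR1 libraries and blue in all CR32027-IR2 libraries.

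The 3 libraries labelled CR32027-IR1 stood apart from one another in these genes. All 64 were higher in replicate 3 than in replicate 2, by a median of 0.27 and by 0.036 to 0.60 on the log2 scale, against 58.9% of all genes and a median of 0.058. Of the 64, 52 had their highest value of all 9 libraries in replicate 3, and 30 had their lowest in replicate 2 and 19 in OreR replicate 3. The median difference between replicates 3 and 2 was 0.25 for complex I, 0.26 for complex II, 0.27 for complex III, 0.34 for complex IV and 0.30 for complex V. Other short genes differed between these libraries as well: the median was 0.20 for other genes under 1000 exonic bases, 0.30 for 81 cytoplasmic ribosomal protein genes, and -0.15 for genes of at least 4000 exonic bases. Subunit genes are short, with a median exonic length of 862 bases against 2022.5 for all tested genes with a known length, and 41 of the 64 are under 1000 bases. The part of gene length in these differences was not tested. The median SD of the subunit genes between libraries of a genotype was 0.14 on the log2 scale in CR32027-IR1, 0.043 in CR32027-IR2 and 0.064 in OreR. For all genes tested it was 0.102, 0.063 and 0.074, so subunit genes varied more than genes in general only in CR32027-IR1. Taken relative to the median subunit gene of each library, the SDs of the subunit genes were 0.053, 0.041 and 0.045.

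**Figure D3:**
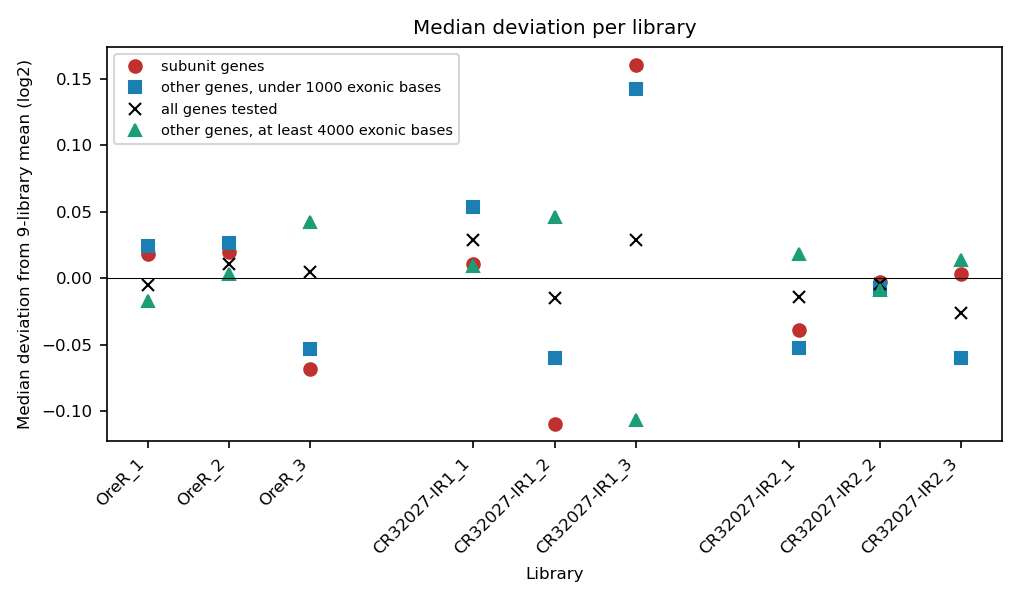
Median deviation of log2(RPKM + 1) from the mean of all 9 libraries (y axis) in each library (x axis) for the subunit genes, for other genes under 1000 and of at least 4000 exonic bases, and for all genes tested. Subunit genes reach 0.16 in CR32027-IR1 replicate 3 and -0.11 in replicate 2, the short genes lie on the same side as they do in those libraries, and the long genes on the other.

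The first comparison asked which subunit genes differed between the libraries labelled CR32027-IR1 and OreR. Of the 64 tested, 1 was higher and 1 lower (limma on log2(RPKM + 1), adjusted p under 0.05 over all 7437 genes tested), or 3.12% in all, where 13.7% of all genes tested were called, 6.09% higher and 7.61% lower. The lower gene was ND-75, the core subunit that holds several iron-sulfur clusters of the electron path in complex I, and the higher one was ND-MLRQ, a small subunit first assigned to complex I and in mammals now counted to complex IV. The median log2 difference of the 64 was 0.0307, against 0.0146 for all genes, with values from -0.24 to 0.31. For each of the 64 the 95% interval of the difference on log2(RPKM + 1) lay within 1.5-fold in either direction, as it did for 88.9% of all genes. These intervals use a spread shared by the 3 genotypes. The median SD of the subunit genes was 0.14 in CR32027-IR1, against 0.043 in CR32027-IR2 and 0.064 in OreR. The intervals may therefore be too narrow for CR32027-IR1. Without regard to multiple testing 8 of the 64 had p under 0.05, or 12.5%, against 29.9% of all genes. In 7 genes all CR32027-IR1 libraries lay above all of OreR (10.9%, against 16.2% of all genes) and in 1 below (1.56%, against 14.6%).

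ND-75 had 44.1, 45.6 and 43.5 RPKM in OreR, 38.2, 38.4 and 40.4 in CR32027-IR1 and 42.3, 42.8 and 44.5 in CR32027-IR2. All 3 libraries labelled CR32027-IR1 lay below all others, and the OreR and CR32027-IR2 groups overlapped. The log2 difference from OreR was -0.18 ± 0.043 (SE; limma, adjusted p = 0.0241), from 44.4 ± 1.08 to 39.0 ± 1.26 RPKM (SD, n = 3). The gene lies on the minus strand of chromosome X from 8248651 to 8251687 (BDGP6) and has 6 exons once overlapping ones are joined. The limma call was lost without CR32027-IR1 replicate 1 (adjusted p = 0.0888), OreR replicate 1 (0.06) or OreR replicate 2 (0.0955), and adjusted p ran from 0.0147 to 0.109 over all 20 alternatives. Set against the median subunit gene of each library, ND-75 was lower in CR32027-IR1 than in OreR by a log2 difference of -0.24.

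ND-MLRQ had 20.3, 19.7 and 18.5 RPKM in OreR, 22.0, 21.4 and 23.7 in CR32027-IR1 and 21.0, 22.0 and 20.8 in CR32027-IR2. The libraries labelled CR32027-IR1 lay above those of OreR and overlapped those of CR32027-IR2, which were themselves all above OreR. The log2 difference from OreR was 0.19 ± 0.055 (SE; limma, adjusted p = 0.0483) for CR32027-IR1 and 0.12 ± 0.055 for CR32027-IR2 (adjusted p = 0.284). Its gene runs along the plus strand of 3L from 23339326 to 23345936 (BDGP6), in 4 exons with 538 exonic bases, 12 of which it shares with mir-4942. The limma call of CR32027-IR1 against OreR was lost on leaving out replicate 1 or 3 of CR32027-IR1 (adjusted p = 0.103 and 0.0992), any 1 of the CR32027-IR2 libraries (0.0749, 0.0715 and 0.0702) or any 1 of OreR (0.0645, 0.114 and 0.139). Adjusted p for this difference ran from 0.0332 to 0.193 over the alternatives.

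Leaving out either outlying library of CR32027-IR1 changed which subunit genes were called, and in opposite directions. Without replicate 2, 6 were higher than in OreR (ATPsynepsilonL, ND-13B, ND-B17, ND-MLRQ, ND-SGDH and UQCR-14) and ND-75 was lower, with a median log2 difference of 0.097. Without replicate 3, 0 were higher and 3 lower (COX5B, ND-75 and ND-B12), with a median of -0.036. With both left out, 0 were called in either direction (limma; the lone CR32027-IR1 library is then assumed to vary like the other groups). ND-75 was thus called with either replicate 2 or replicate 3 left out singly, and ND-MLRQ was not called without replicate 3. With replicate 2 or replicate 3 left out singly, all genes called against OreR stayed within 1.5 times the 1019 of the main fit.

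**Figure D4:**
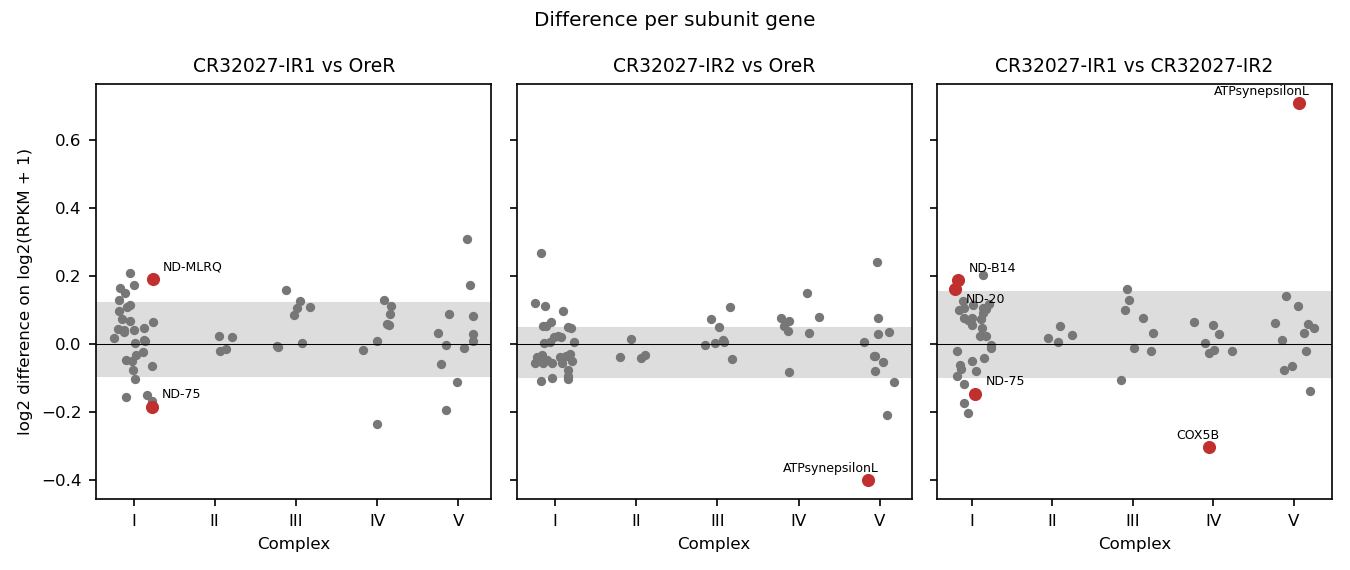
Log2 difference of each tested subunit gene (y axis, on log2(RPKM + 1)) by complex (x axis) in the 3 comparisons, with genes called by limma in red and named, and the range between the quartiles of all 7437 genes as a grey band. The points lie mostly within or near the band, and ATPsynepsilonL is the farthest from 0 in all 3 panels.

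The second comparison asked which subunit genes differed between CR32027-IR2, the line with less CR32027, and OreR. Of the 64 tested, 0 were higher and 1 lower, ATPsynepsilonL (1.56%; limma, adjusted p under 0.05), where 5.15% of all genes tested were called, 2.93% higher and 2.22% lower. Without adjustment 4 had p under 0.05 (6.25%, against 18.3% of all genes), and limma voom, a count-based variant run on the recovered reads, called 0 higher and 0 lower. In 9 genes the CR32027-IR2 libraries lay above all of OreR (14.1%, against 11.6% of all genes) and in 6 below (9.38%, against 16.6%). The median log2 difference was 0.005, against -0.0221 for all genes, with values from -0.40 to 0.27. The 95% interval lay within 1.5-fold for 63 of the 64, ATPsynepsilonL being the exception, and for 89.8% of all genes; it lay within 1.25-fold for 57 of the 64 and for 69.6% of all genes.

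The largest positive differences of CR32027-IR2 from OreR were not called. ND-B14.7, a membrane subunit of complex I, had 64.3, 58.0 and 55.0 RPKM in OreR, 58.4, 58.3 and 69.2 in CR32027-IR1 and 72.3, 72.7 and 68.6 in CR32027-IR2. The CR32027-IR2 libraries were all above those of OreR, with a log2 difference of 0.27 ± 0.078 (SE; limma, adjusted p = 0.0961), and those labelled CR32027-IR1 overlapped both groups (0.07 from OreR; adjusted p = 0.63). ATPsynG, a subunit of the membrane part of the ATP synthase, had 156, 148 and 142 RPKM in OreR, 162, 151 and 193 in CR32027-IR1 and 174, 179 and 174 in CR32027-IR2. Again the CR32027-IR2 libraries were above those of OreR without overlap (0.24 ± 0.082; limma, adjusted p = 0.148), while those labelled CR32027-IR1 spread across them (0.17; adjusted p = 0.188). Both genes passed against OreR when only the genotypes compared were fitted (limma, adjusted p = 0.0471 for ND-B14.7 and 0.0221 for ATPsynG) and without CR32027-IR1 replicate 3 (0.0342 and 0.022). Each was called in only 5 of the 20 alternatives, over which adjusted p ran from 0.0115 to 0.268 for ND-B14.7 and from 0.00856 to 0.353 for ATPsynG. ATPsynCF6, the coupling factor 6 subunit of the stalk that holds the catalytic head, had 178, 175 and 153 RPKM in OreR, 149, 135 and 157 in CR32027-IR1 and 141, 145 and 150.5 in CR32027-IR2. The CR32027-IR2 libraries were all below OreR and those labelled CR32027-IR1 overlapped it at its lower end. The log2 differences were -0.21 ± 0.073 and -0.19 ± 0.073 (limma, adjusted p = 0.164 and 0.114), and both share the OreR libraries. ATPsynCF6 was called lower in 2 of the 20 alternatives for CR32027-IR2 (adjusted p from 0.0325 to 0.402) and in 1 for CR32027-IR1 (0.00609 to 0.291).

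The third comparison set the hairpin lines against each other. Of the 64 tested, 3 were higher in CR32027-IR1 than in CR32027-IR2 (ATPsynepsilonL, ND-20 and ND-B14) and 2 were lower (ND-75 and COX5B), together 7.81%, where 21.9% of all genes tested were called, 12.3% higher and 9.57% lower (limma, adjusted p under 0.05). Without adjustment 7 had p under 0.05 (10.9%, against 36.4% of all genes). In 9 genes the CR32027-IR1 libraries lay above all of CR32027-IR2 (14.1%, against 22.5% of all genes) and in 1 below (1.56%, against 16.8%). The median log2 difference was 0.0314, against 0.0326 for all genes, with values from -0.30 to 0.71. ATPsynepsilonL had the largest difference of the 64.

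ATPsynepsilonL had 6.67, 6.41 and 5.90 RPKM in OreR, 7.55, 7.29 and 9.48 in CR32027-IR1 and 4.35, 4.87 and 4.44 in CR32027-IR2. The 3 groups did not overlap: CR32027-IR2 was lowest, OreR between and CR32027-IR1 highest, at 4.55 ± 0.280, 6.33 ± 0.393 and 8.11 ± 1.20 RPKM (SD, n = 3). The values rest on 87, 79 and 61 reads in CR32027-IR2, 93, 96 and 111 in OreR and 126, 120 and 169 in the libraries labelled CR32027-IR1, far fewer than the at least 560 reads per library behind every other tested subunit gene. The log2 difference between the hairpin lines was 0.71 ± 0.093 (SE; limma, adjusted p = 0.00124), and this call held under each of the 20 alternatives (adjusted p from 0.000148 to 0.0103).

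Against OreR, ATPsynepsilonL was lower in CR32027-IR2 by a log2 difference of -0.40 ± 0.093 (SE; limma, adjusted p = 0.0429). That limma call was lost on leaving out replicate 1 of CR32027-IR1 (adjusted p = 0.0652), any 1 of the CR32027-IR2 libraries (0.131, 0.0873 and 0.135) or any 1 of OreR (0.14, 0.142 and 0.0618), and adjusted p ran from 0.00464 to 0.168 over all alternatives. For CR32027-IR1 the difference from OreR was 0.31 ± 0.093, short of the threshold (limma, adjusted p = 0.0575). It occupies 10121773 to 10122320 of 3R, plus strand (BDGP6), in 2 exons, and shares no exon bases with another gene. Of its neighbours, Fmr1, knk and tws were tested and not called in any of the 3 comparisons (limma, adjusted p of at least 0.355), and TAF1B was lower in CR32027-IR1 than in CR32027-IR2 (adjusted p = 0.0307). The main epsilon subunit gene, sun, had 50.8, 49.6 and 47.0 RPKM in OreR, 49.8, 46.3 and 57.3 in CR32027-IR1 and 50.1, 54.9 and 51.5 in CR32027-IR2, with the groups overlapping and log2 differences of 0.05 and 0.09 from OreR.

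ND-20, the subunit with the last iron-sulfur cluster before ubiquinone in complex I, had 83.8, 87.0 and 84.3 RPKM in OreR, 90.9, 88.7 and 95.9 in CR32027-IR1 and 81.4, 79.8 and 84.6 in CR32027-IR2. The libraries labelled CR32027-IR1 lay above all others, with a log2 difference of 0.16 ± 0.045 from CR32027-IR2 (SE; limma, adjusted p = 0.0309) and 0.11 from OreR (adjusted p = 0.144). Between the hairpin lines the limma call was lost without CR32027-IR1 replicate 1 (adjusted p = 0.0789) or 3 (0.0613) and without CR32027-IR2 replicate 1 (0.0923) or 2 (0.11), and adjusted p ran from 0.00843 to 0.117 over all alternatives. ND-20 lies on the minus strand of chromosome X from 15985473 to 15986808 (BDGP6) in 1 exon.

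ND-B14, an accessory subunit of complex I, had 48.0, 46.8 and 45.3 RPKM in OreR, 51.0, 49.3 and 55.8 in CR32027-IR1 and 47.9, 45.6 and 43.2 in CR32027-IR2. The libraries labelled CR32027-IR1 were above the other groups, which overlapped, and differed from CR32027-IR2 by 0.19 ± 0.059 (SE; limma, adjusted p = 0.0483). The call was lost without each library except CR32027-IR1 replicate 2, with adjusted p of 0.0961 without CR32027-IR1 replicate 1 and 0.108 without replicate 3, of 0.0526, 0.114 and 0.158 without 1 of CR32027-IR2, in order, and of 0.0633, 0.071 and 0.0624 without 1 of OreR. Over all alternatives the limma adjusted p ran from 0.0253 to 0.166. It spans 10897144 to 10897885 of 2R, minus strand (BDGP6), and 12.9% of its exonic bases overlap CG12942 on the other strand. The sources used here do not say whether counting was strand-specific.

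COX5B, a nuclear subunit of cytochrome c oxidase, had 65.8, 64.6 and 63.0 RPKM in OreR, 52.0, 48.8 and 64.2 in CR32027-IR1 and 64.0, 71.5 and 67.5 in CR32027-IR2. Replicates 1 and 2 of CR32027-IR1 were the lowest of the 9 libraries, and replicate 3 lay within the range of the other groups. The log2 difference from CR32027-IR2 was -0.30 ± 0.091 (SE; limma, adjusted p = 0.0417) and that from OreR -0.24 ± 0.091 (adjusted p = 0.119). Between the hairpin lines the limma call was lost without CR32027-IR1 replicate 1 (adjusted p = 0.134) or 2 (0.08), any 1 of the CR32027-IR2 libraries (0.0595, 0.13 and 0.101) or any 1 of OreR (0.0597, 0.0614 and 0.0587). Without CR32027-IR1 replicate 3 it was called against both groups (0.00266 and 0.00729), and over all alternatives adjusted p against CR32027-IR2 ran from 0.00151 to 0.134. Set against the median subunit gene of each library, COX5B in CR32027-IR1 was below OreR by a log2 difference of -0.29, with no overlap, the farthest below of the 64. Its 3 exons span 6557800 to 6559308 of 2L, plus strand (BDGP6).

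The call of ND-75 between the hairpin lines had a log2 difference of -0.14 ± 0.043 (SE; limma, adjusted p = 0.042). It was lost without every library except CR32027-IR1 replicate 3, at adjusted p of 0.137 and 0.07 without CR32027-IR1 replicate 1 or 2, 0.078, 0.096 and 0.141 without 1 of CR32027-IR2, in order, and 0.0595, 0.0574 and 0.0563 without 1 of OreR. Over all alternatives it ran from 0.0162 to 0.172.

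**Figure D5:**
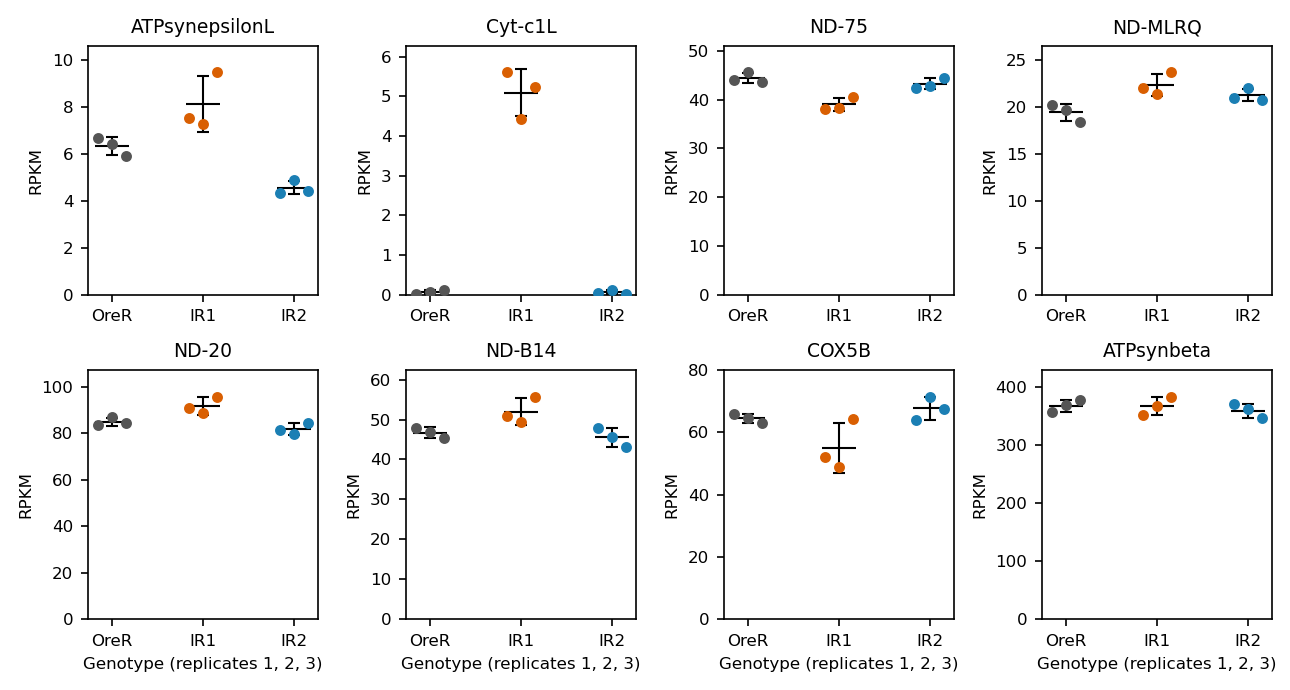
RPKM (y axis, from 0) of the 6 subunit genes called in any comparison, of Cyt-c1L and, for reference, of ATPsynbeta, by genotype (x axis, IR1 and IR2 standing for CR32027-IR1 and CR32027-IR2); points are libraries and bars the mean ± SD of 3. ATPsynepsilonL has 3 separate groups, Cyt-c1L is near 0 outside CR32027-IR1, and the differences of the others are small beside their levels.

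Beyond these 6, no tested subunit gene was called in any comparison (limma, adjusted p). In complex I, 32 genes were tested, with median log2 differences of 0.0376 for CR32027-IR1 and -0.0307 for CR32027-IR2 from OreR. Of the iron-sulfur and ubiquinone-side core subunits measured (ND-75, ND-51, ND-49, ND-24, ND-23 and ND-20), ND-75 was the one called against OreR. The accessory subunit ND-AGGG, with the second highest deposited level in the complex, had 83.1, 77.0 and 76.9 in OreR, 81.7, 73.3 and 89.5 in CR32027-IR1 and 83.2, 87.0 and 86.3 in CR32027-IR2 RPKM. ND-B14.5B had 59.2, 55.9 and 49.3 in OreR, 59.5, 56.3 and 75.6 in CR32027-IR1 and 52.5, 55.8 and 56.3 in CR32027-IR2 RPKM, the third largest difference of the 64 between CR32027-IR1 and OreR (0.21; limma, adjusted p = 0.225), and its replicate 3 stood far above replicates 1 and 2. At the low end, ND-15, a small accessory subunit, had 2.64, 2.65 and 2.45 in OreR, 2.48, 2.29 and 2.61 in CR32027-IR1 and 2.48, 2.48 and 2.56 in CR32027-IR2 RPKM. ND-ASHI had 18.2, 18.7 and 20.0 in OreR, 18.2, 17.1 and 22.8 in CR32027-IR1 and 17.7, 17.4 and 17.7 in CR32027-IR2 RPKM, with only CR32027-IR1 replicate 3 above the OreR libraries.

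Complex II, succinate dehydrogenase, consists of a flavoprotein, an iron-sulfur protein and a pair of membrane anchors. In the 3 comparisons 0 of its 4 genes were called by limma or voom, or had an unadjusted p under 0.05. Of all genes, limma called 13.7% and 5.15% in CR32027-IR1 and CR32027-IR2 against OreR and 21.9% between the hairpin lines. With 4 genes, 0 calls cannot be set apart from these shares. SdhB, the iron-sulfur subunit, had 52.5, 60.7 and 55.5 in OreR, 55.7, 51.9 and 58.7 in CR32027-IR1 and 54.5, 58.1 and 51.5 in CR32027-IR2 RPKM. The anchors SdhC and SdhD had 94.0, 96.2 and 88.9 in OreR, 92.3, 81.0 and 104 in CR32027-IR1 and 87.9, 91.8 and 91.6 in CR32027-IR2 RPKM, and 43.7, 43.8 and 41.3 in OreR, 45.3, 38.0 and 48.5 in CR32027-IR1 and 42.3, 44.3 and 43.7 in CR32027-IR2 RPKM. In each of these genes all 3 groups overlapped, and the complex's median log2 differences from OreR were 0.0042 for CR32027-IR1 and -0.0345 for CR32027-IR2.

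Complex III passes electrons from ubiquinol to cytochrome c, and 0 of its 8 tested genes were called in the 3 comparisons (limma and voom, adjusted p). Between the hairpin lines 1 had an unadjusted p under 0.05 (limma). The shares of all genes called by limma were 13.7% and 5.15% in CR32027-IR1 and CR32027-IR2 against OreR and 21.9% between the hairpin lines. With 8 genes, 0 calls cannot be set apart from these shares. UQCR-11, a small subunit with the highest deposited level of the complex, had 107, 106 and 101 in OreR, 109.6, 110.0 and 133 in CR32027-IR1 and 105, 103 and 106 in CR32027-IR2 RPKM, and CR32027-IR1 lay above OreR without overlap (0.16 ± 0.071, SE; limma, adjusted p = 0.17). UQCR-14, another small subunit, had 100.2, 98.6 and 102 in OreR, 108, 98.7 and 117 in CR32027-IR1 and 97.9, 102 and 102 in CR32027-IR2 RPKM, and UQCR-Q had 49.9, 48.7 and 42.4 in OreR, 45.2, 42.7 and 53.8 in CR32027-IR1 and 49.8, 50.8 and 51.4 in CR32027-IR2 RPKM. In both, each hairpin line overlapped OreR. All exons of UQCR-14 lie within CG32576 on the other strand.

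In complex IV, cytochrome c oxidase, 8 genes were tested. COX7A, with the highest deposited level, had 204, 201 and 198 in OreR, 204, 183 and 211 in CR32027-IR1 and 189, 187 and 193 in CR32027-IR2 RPKM, and CR32027-IR2 lay below OreR without overlap (-0.08 ± 0.055, SE; limma, adjusted p = 0.499). COX5A had 145, 150.3 and 131 in OreR, 152, 137 and 174 in CR32027-IR1 and 143, 156 and 151 in CR32027-IR2 RPKM and COX6B had 53.0, 54.4 and 48.1 in OreR, 52.8, 48.2 and 55.7 in CR32027-IR1 and 52.6, 53.6 and 53.3 in CR32027-IR2 RPKM, with overlapping groups in both. Besides COX5B, called between the hairpin lines (12.5% of the 8, against 21.9% of all genes), no gene of this complex was called in any comparison.

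In the ATP synthase, the membrane ring subunit ATPsynC had 355, 359 and 356 in OreR, 352, 334 and 377 in CR32027-IR1 and 364, 363 and 348 in CR32027-IR2 RPKM, with all groups overlapping and log2 differences of -0.01 and 0.01 from OreR. ATPsyndelta, a subunit of the central stalk, had 97.8, 98.1 and 91.3 in OreR, 87.1, 78.4 and 102 in CR32027-IR1 and 91.6, 97.7 and 90.9 in CR32027-IR2 RPKM, also overlapping. Of the 12 tested genes of this complex, ATPsynepsilonL was the one called in any comparison. It made up 8.33% of the 12 for CR32027-IR2 against OreR and between the hairpin lines, against 5.15% and 21.9% of all genes.

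Respiratory subunit genes whose symbols fall outside the rule included 1 large difference. Cyt-c1L, a copy of the cytochrome c1 gene, had 0.0268, 0.0747 and 0.119 RPKM in OreR, 5.61, 4.44 and 5.23 in CR32027-IR1 and 0.0373, 0.115 and 0.0272 in CR32027-IR2. It was present in the 3 libraries labelled CR32027-IR1 and near 0 in all others. Its mean over the 9 libraries reached the 1 RPKM minimum only through the CR32027-IR1 libraries, so its values are given as a description, with no test. Cyt-c1L spans 29202660 to 29204133 of 3R, minus strand (BDGP6). The next gene to its right, the noncoding RNA CR31044 (from 29214562), was also higher in CR32027-IR1 (23.6 RPKM against 2.36 in OreR and 1.81 in CR32027-IR2; limma, adjusted p = 8.8e-08 against OreR), while Mesh1, to its left, was not called (adjusted p = 0.952). Of the other 5 genes of this list that were tested, limma called 0 between CR32027-IR1 and OreR (1, cype, had an unadjusted p under 0.05), while voom called this complex IV subunit gene lower (adjusted p = 0.0483, against 0.0571 by limma, and 0.00243 to 0.168 over the alternatives, of which 5 called it). Between CR32027-IR2 and OreR 0 were called by limma or voom and 1 had an unadjusted p under 0.05 (limma). Of all genes, limma called 13.7% in CR32027-IR1 and 5.15% in CR32027-IR2 against OreR. Between the hairpin lines the complex III subunit gene ox and cype were lower in CR32027-IR1. They had 67.8, 68.6 and 68.9 in OreR, 66.7, 54.5 and 69.5 in CR32027-IR1 and 82.9, 82.8 and 80.7 in CR32027-IR2 RPKM, and 134, 134 and 119.9 in OreR, 107, 91.8 and 118 in CR32027-IR1 and 145, 135 and 132 in CR32027-IR2 RPKM, in that order, and the limma adjusted p was 0.0108 and 0.0154. The cype call was lost without CR32027-IR2 replicate 1 (0.0551). The alpha subunit gene of the ATP synthase, blw, had log2 differences of -0.0045 and -0.03 from OreR.

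The 13 protein genes of the mitochondrial genome were all tested. After adjustment, limma and voom called 0 of them against OreR in CR32027-IR1 or CR32027-IR2 (13.7% and 5.15% of all genes by limma). Without adjustment 5 in CR32027-IR1 and 0 in CR32027-IR2 had p under 0.05 (limma), or 38.5% and 0%, against 29.9% and 18.3% of all genes. Their median log2 difference was 0.2768 for the libraries labelled CR32027-IR1 and 0.0273 for CR32027-IR2, against 0.0146 and -0.0221 for all genes. This median includes genes of low level. The highest library had 2.43 RPKM for mt:ND4L, 2.28 for mt:ND6, 9.49 for mt:ATPase8 and 15.7 for mt:ND2. Each of the other mitochondrial genes had at least 123.8 RPKM in every library. Between the hairpin lines mt:ND3, a membrane subunit of complex I, was higher in CR32027-IR1, with 510.4, 406 and 449 in OreR, 523, 513 and 781 in CR32027-IR1 and 403, 445 and 418 in CR32027-IR2 RPKM (log2 difference 0.49 ± 0.15, SE; limma, adjusted p = 0.0465). CR32027-IR1 replicate 3 was the highest library here too. The call was lost without every library except CR32027-IR1 replicate 2, with adjusted p of 0.0555 and 0.0518 without CR32027-IR1 replicate 1 or 3, 0.121, 0.0844 and 0.112 without 1 of CR32027-IR2, in order, and 0.0524, 0.0552 and 0.0653 without 1 of OreR. Poly(A) selection bears on mitochondrial transcripts in its own way, so these levels are not set against the nuclear ones.

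Of 13 assembly factor genes tested, 1 was higher and 2 were lower in CR32027-IR1 than in OreR (23.1%, against 13.7% of all genes called), with a median log2 difference of -0.0161, against 0.0146 for all genes. Cox17, a copper chaperone for cytochrome c oxidase, fell from 15.1 ± 0.471 to 11.0 ± 0.793 RPKM (SD, n = 3; log2 difference -0.43; limma, adjusted p = 0.0042, and 0.000679 to 0.0381 over the alternatives). Cox10, which makes a precursor of heme A, fell from 23.1 ± 2.19 to 18.7 ± 1.60 RPKM (limma, adjusted p = 0.04), and Coa8, another cytochrome c oxidase assembly factor, rose from 24.9 ± 1.00 to 29.8 ± 1.53 (adjusted p = 0.0369). The Cox10 call was lost on leaving out replicate 1 or 2 of CR32027-IR1 (0.0929 and 0.0718), any 1 of CR32027-IR2 (0.0591, 0.0643 and 0.0581) or replicate 1 or 2 of OreR (0.119 and 0.114). The Coa8 call was lost on leaving out replicate 1 or 3 of CR32027-IR1 (0.111 and 0.0833), replicate 3 of CR32027-IR2 (0.053) or any 1 of OreR (0.0565, 0.123 and 0.0914).

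Of 12 genes of the tricarboxylic acid cycle and pyruvate dehydrogenase, 0 were higher and 2 lower in CR32027-IR1 than in OreR (16.7%, against 13.7% of all genes called), and 5 had an unadjusted p under 0.05 (41.7%, against 29.9% of all genes; limma). Voom also called 0 higher and 2 lower, and the median log2 difference was -0.008. ScsbetaA, a subunit of succinyl-CoA synthetase, fell from 38.5 ± 1.62 to 25.4 ± 2.03 RPKM (SD, n = 3; -0.58; limma, adjusted p = 0.00105, and 0.000537 to 0.00703 over the alternatives). Pdha, a pyruvate dehydrogenase subunit, fell from 31.9 ± 0.836 to 26.1 ± 0.662 RPKM (-0.28; limma, adjusted p = 0.00464), a call that held without each single library and was lost with CR32027-IR1 replicates 2 and 3 both left out (0.0725). For Cox17, Cox10, Coa8, ScsbetaA and Pdha the CR32027-IR1 libraries did not overlap those of OreR. These genes were picked by calls on the same values, so this adds no support to the calls. Of all genes, 16.2% lay above OreR without overlap and 14.6% below.

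Of 6 genes of mitochondrial transcription and DNA maintenance, limma called 1 against OreR in CR32027-IR1, where it called 13.7% of all genes. This was mtSSB, which binds single-stranded mitochondrial DNA. It rose to 43.0 ± 3.79 from 33.8 ± 3.33 RPKM in OreR (SD, n = 3, with limma adjusted p = 0.0338). Its call was lost on leaving out replicate 1 or 3 of CR32027-IR1 (0.114 and 0.0804), replicate 2 of CR32027-IR2 (0.0548) or replicate 1 or 3 of OreR (0.097 and 0.102). Further lists held 6 carrier genes, 9 import and folding genes, 7 regulators of mitochondrial genes and 6 genes of defence against reactive oxygen. Of these 28, 0 were called against OreR in CR32027-IR1 (limma and voom, adjusted p), where limma called 13.7% of all genes. An unadjusted p under 0.05 was found for 9 of them (limma, 32.1%, near the 29.9% of all genes). The median log2 differences of these lists were -0.0785, -0.0467, -0.0685 and -0.0693, in the same order. In CR32027-IR2, 59 genes were tested in the 7 lists of assembly, cycle, carrier, import, DNA, regulator and defence genes. Limma called 0 of them against OreR (adjusted p), against 5.15% of all genes, and 8 had an unadjusted p under 0.05 (13.6%, against 18.3% of all genes). Voom called 1 of them higher there, the complex I assembly factor gene Nubpl (adjusted p = 0.0487, against 0.0512 by limma).

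Between the hairpin lines, the same lists held 6 genes higher and 7 lower in CR32027-IR1, or 22.0% of the 59, the share being close to the 21.9% of all genes called in this comparison. Cox17, ScsbetaA and Pdha were lower there too, with log2 differences of -0.42, -0.64 and -0.25 (limma, adjusted p = 0.00299, 0.000376 and 0.00501), and kept these calls without each single library. With CR32027-IR1 replicates 2 and 3 both left out, Pdha was not called (0.063). Mdh2, the mitochondrial malate dehydrogenase, was higher (0.25; limma, adjusted p = 0.017), a call lost without CR32027-IR2 replicate 2 (0.0644). The remaining 9 were Coa8, mtSSB, the import genes Tim17b and Tom20 and the transcription factor gene Ets97D, higher, and Cox10, Nubpl, mAcon1 and the outer membrane channel gene porin, lower. Each of these lost its call without at least 1 library, with limma adjusted p of 0.0531 to 0.159 where it was lost.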

How the data were processed

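The deposited values are RPKM per gene and library, which the authors made from TruSeq Stranded mRNA libraries (100 ng RNA, per the labels' protocols) with CASAVA 1.8.2 and TopHat2 on dm3, per the submitters' processing notes. The sources used here name no counter, gene models, strand setting or filter. Of 7437 genes tried, 7432 (99.93%) had values that were whole reads within 0.01 read. Among 6198 genes with introns, the recovered length was within 2% of the BDGP6 gene span in 77.91% and of the exonic length in 2.42%, so long introns lower the RPKM. BDGP6 (reference annotation) served for names (15001 rows), positions (15002 rows) and lengths, never as dm3 coordinates. Intervals and spreads rest on 3 libraries per genotype, which differed beyond sampling noise.

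Genes averaging 1 RPKM or more across all 9 libraries were tested on log2(RPKM + 1) with limma 3.58.1 (R 4.3.3; trended variance, all 9 libraries in 1 fit, Benjamini-Hochberg adjustment over 7437 genes, threshold 0.05). The RPKM were first read and summarised in Python 3.11.15. On this scale the changes of low genes come out too small. The fitting code was tested on simulated data. The members and gene lists were chosen with earlier results of these data known. Named members were those called in any comparison, the 2 highest and 2 lowest of each complex by mean level and the 3 with the largest differences in each comparison, and list genes were those called. ATPsynCF6, blw, sun and the neighbours of the copies were named besides. Alternatives were another pseudocount (0.1), no filter or at least 5 RPKM, median scaling, quantile normalization, fits of only the genotypes compared, a replicate block, array weights, voom on the recovered reads, and leaving out each library. Leaving out CR32027-IR1 replicates 2 and 3 together and removing a length trend were chosen after seeing the data. Promoter and protein sequences were not used here.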

Additional observations from a re-analysis of the deposited data

Results flagged for a closer look

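ATPsynepsilonL, the second gene for the epsilon subunit of the ATP synthase, stood out by its difference between the hairpin lines, a log2 difference of 0.71 between CR32027-IR1 and CR32027-IR2 (limma on log2(RPKM + 1), adjusted p = 0.00124), with all 3 libraries of CR32027-IR1 above OreR and all 3 of CR32027-IR2 below it. This value is the one by which the gene was singled out, and opposite directions from OreR were not tested as such. Against OreR, CR32027-IR1 was not called (limma, adjusted p = 0.0575), and the call of CR32027-IR2 (0.0429) was lost in 11 of the 20 alternatives.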

How the results depend on the processing

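No called difference changed sign under any alternative. The median differences of the subunit genes, all near 0, moved by less than 1 SD between libraries but changed sign in some, from -0.036 to 0.097 for CR32027-IR1 and from -0.024 to 0.017 for CR32027-IR2 against OreR and from -0.038 to 0.098 between the hairpin lines when 1 library was left out. Of the values for single genes, 2486 stayed on their side of the threshold, 221 lost and 47 gained a call. Counts moved by over 1.5 times as follows. Without a filter, members were 0 higher in CR32027-IR1 against OreR, 0 lower in CR32027-IR2 against OreR and 1 lower in CR32027-IR1 against CR32027-IR2. Median scaling gave 2 higher in CR32027-IR1 against OreR, and quantile normalization and voom each 0 lower in CR32027-IR2 against OreR. Fits of only the genotypes compared gave 0 higher and 0 lower for CR32027-IR1 against OreR (612 of all genes), 2 higher for CR32027-IR2 against OreR, and 1 higher and 0 lower between the hairpin lines. With array weights these were 0 and 0 (371 genes), 2 higher and 2 lower (972 genes), and 1 and 0 (706 genes). Without CR32027-IR1 replicates 2 and 3 they were 0 and 0 (327 genes), 2 higher, and 1 and 1 (874 genes). With the length trend removed they were 3 higher and 6 lower, 2 and 2, and 1 and 11. More members were thus called in each comparison than in the main fit. All genes called stayed within 1.5 times the main counts there, which were 1019, 383 and 1625 in the same order. The low share of members called in the main fit therefore depends on this setting.

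Same-numbered libraries showed no common deviation, with 9 correlations from -0.237 to 0.116 and 1 over 0.1. Differently numbered libraries reached 0.267 (CR32027-IR1 replicate 2 with OreR replicate 3). Such correlations cannot exclude that same-numbered libraries were handled together. The replicate block gave 0 higher and 0 lower for CR32027-IR1 against OreR (565 of all genes), 0 lower for CR32027-IR2 against OreR (222 genes), and 1 higher and 0 lower between the hairpin lines.

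Leaving out 1 library at a time, members called higher ranged from 0 to 6, 0 to 2 and 1 to 7 in the 3 comparisons and those called lower from 0 to 3, 0 to 1 and 0 to 5, while all genes called ranged from 485 to 1320, 187 to 504 and 970 to 2159. The small number of libraries, 3 per genotype, limits every call. ATPsynepsilonL rests on the fewest reads of the tested members.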
